A study of Drosophila melanogaster with 9 samples.

Results

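The genes described here encode 32 core proteins of the spliceosome, the particle that cuts introns out of pre-mRNA. They were chosen by name, as snRNP proteins and core splicing factors, and all 32 were found among the 17559 genes of each count file. All 32 also passed the filter on low counts that left 9207 genes for testing. They were measured in poly(A)-selected RNA of S2R+ cells, a Drosophila melanogaster line of embryonic origin with haemocyte-like properties, in 3 groups of 3 libraries. The control group expressed a nuclear GFP (GFPnls), the Ubx-WT group the wild-type Hox protein Ultrabithorax, and the Ubx-N51A group Ubx with a changed residue in the DNA-contacting helix of its homeodomain. All groups used Gal4-UAS with an actin promoter, so each protein was overexpressed in a cell line and not at its place in the animal. The protocol text of the labels names a myc tag on Ubx (myc-UbxWT, myc-UbxN51A), and the sample labels name GFP-Ubx-WT and GFP-Ubx-N51A. The deposited files carry a word on sorting that differs by group and is explained nowhere, so a sort and the group cannot be told apart. The series title asks about Ubx, RNA binding, RNA polymerase II and splicing. Gene counts answer only how much transcript of each splicing factor the cells held, not how introns were spliced.

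The spliceosome is assembled anew on each intron. The U1 snRNP binds the 5′ splice site, the U2AF dimer and the U2 snRNP bind the 3′ splice site and the branch point, and the U4/U6.U5 tri-snRNP then joins. The Prp19-associated complex (NTC) enters as the particle is activated, and separate factors drive the second chemical step, the joining of exons. A ring of Sm proteins surrounds the snRNAs of U1, U2, U4 and U5 and is shared by these snRNPs. Most of these proteins are needed in every dividing cell.

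Each library held between 30967554 and 66828787 reads in genes. No replicate pair agreed within sampling noise (lowest chi-square over its degrees of freedom 6.28). Genes of the mitochondrial genome took 1.92% to 3.43% of the GFP reads, 2.77% to 4.91% of the Ubx-WT reads and 4.11% to 5.87% of the Ubx-N51A reads. The targeted gene followed the labels, with 8 to 89 Ubx reads per GFP library and at least 51719 in each library with a Ubx protein. The Ubx-WT libraries had 71888, 69408 and 102681 Ubx reads and the Ubx-N51A libraries 51719, 76367 and 145254. Relative to the TMM-scaled library size, each Ubx-N51A library held more than each Ubx-WT library, narrowly so for replicate 1 of both groups. The part of this difference in the results was not tested. Of 9 haemocyte markers 7 reached a mean of 1 CPM (the read count relative to the TMM-scaled library size) in the GFP cells. The haemocyte markers NimC1 and He were at most 0.0875 and 0.936 CPM in any library. The summed haemocyte markers stood at 2055 to 2204 CPM in GFP cells, 2003 to 2084 in Ubx-WT cells and 2056 to 2086 in Ubx-N51A cells. The sum hides shifts of single markers. Pvr had 828 to 849 CPM in GFP cells, 736 to 752 in Ubx-WT cells and 740 to 755 in Ubx-N51A cells. In both Ubx groups ush also lay below and fz above its GFP range, as did crq above it with Ubx-N51A. The ranges of srp, Hml and Pxn overlapped between the groups. Of 4 neuron markers elav was at 32.6 to 51.4 CPM, and nSyb, brp and Syt1 stayed under 1 CPM in every library. The germline markers aub and bam were at 239 to 249 and 1.38 to 2.36 CPM, and the 3 muscle markers summed to 1.96 to 3.45 CPM, mostly Mlc2. The 3 fat body markers summed to 0.0585 to 0.136 CPM in GFP cells, 0.339 to 0.38 in Ubx-WT cells and 0.0333 to 0.108 in Ubx-N51A cells, with Lsp2 at 0 outside Ubx-WT. The part of these markers in the results was not tested.

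In 2 libraries the core spliceosome genes stood apart. In Ubx-WT replicate 2 all 32 members were below their GFP mean, with a median of -0.16 on the log2 scale, against -0.02 and -0.07 in the other Ubx-WT libraries. Across all genes of at least 5 CPM the median of Ubx-WT replicate 2 was -0.03. In Ubx-N51A replicate 1, which also had the highest mitochondrial share (5.87%), the 11 members with under 1000 bp of exon sequence had a median of 0.145, while the 10 members of 2500 bp or more had -0.11. The other Ubx-N51A libraries gave 0.03 and -0.03 for the short members and -0.08 and -0.02 for the long ones. The GFP libraries were split as well. In GFP replicate 3, 28 members were below their GFP mean, at a median of -0.051, and in GFP replicate 1, 4 were, at 0.031. Ubx-WT replicate 1, with 22 members below and a median of -0.016, thus lay above GFP replicate 3. Values that moved by over 1.5 times without Ubx-WT replicate 2 or Ubx-N51A replicate 1 are given with the result.

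Many of the members are short and simply built genes. Of the 32, however, 10 have 2500 bp or more of exons, and Prp8 and Sf3b3 have 13 introns each. Their summed exon length ran from 370 bp (Sf3b5) to 7442 bp (Prp8), with a median of 1706 bp, against 2102 bp for the 8437 protein-coding genes tested. No intron was annotated in 9 of the 32 (28.1%), against 9.17% of protein-coding genes tested, and 21 of 32 (65.6%) had a single annotated transcript, against 40.2%. The members without introns include the Sm genes SmE and SmF, the U1 gene snRNP-U1-C and the U2 genes noi, U2A, Sf3a2 and Sf3b5. The members lie on all large chromosome arms, 8 on 3L and 6 each on 2L, 2R, 3R and X. Prp8, SmD3 and SmF are neighbours within 30.1 kb of 2R (12154258 to 12184310 in BDGP6.54).

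Transcript levels are compared between genes per kb of exon length, in TMM-scaled CPM per kb. Of the 32 members 31 were above the median of all genes tested and 10 were above the 90th percentile. Each member drew at least 414 reads in every library (the lowest was Prp18) and up to 40206 (Prp8). The Sm genes had the highest levels of the classes, with a median of 156 CPM per kb over all libraries. They were followed by U1 (57.2), U2 with U2AF (50.9), the tri-snRNP (50.6), the NTC (45.7) and the second-step factors (19.2).

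**Figure D1:**
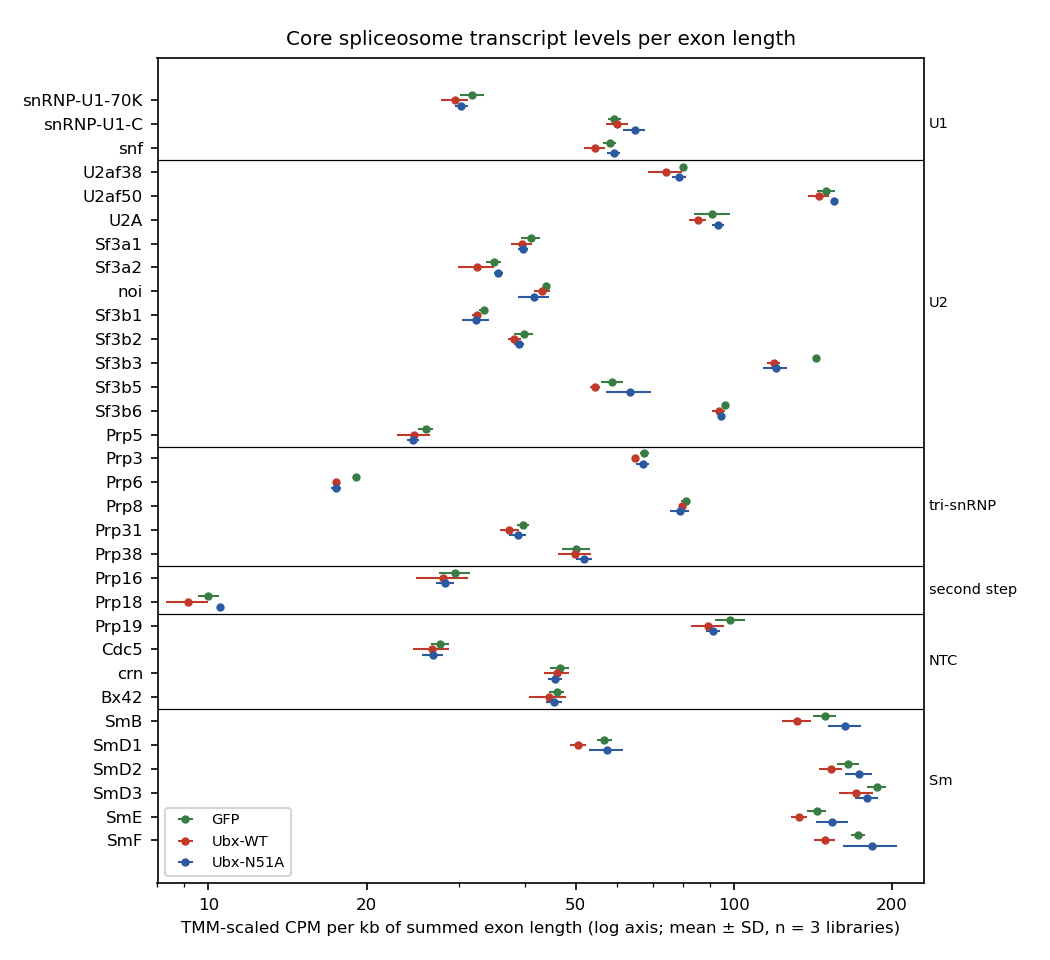
Level of each core spliceosome gene in TMM-scaled CPM per kb of summed exon length, on a log axis. Points are group means and bars SDs over 3 libraries (green GFP, red Ubx-WT, blue Ubx-N51A), and lines separate the classes. Prp18 is lowest, near 10 CPM per kb, and 5 of the 6 Sm genes lie above 100.

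Within the Sm ring, whose proteins meet in equal number, transcript levels of the 6 members were unequal. SmG, also a ring protein, is not a member and found no match by name, so its level is not given. SmD3 averaged 179 CPM per kb over the 9 libraries, SmF 168, SmD2 164, SmB 148 and SmE 144. SmD1 averaged 54.8 and ranged from 49.3 to 62.0, below the lowest library of any other Sm member (124, of SmB). The ranges of SmB, SmD2, SmD3, SmE and SmF over the libraries overlapped, so these ranges alone do not order them. Within each library SmD3 (744 bp) had a higher CPM than the slightly longer SmB (776 bp).

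In U1, snRNP-U1-C, a zinc finger protein that steadies 5′ splice site pairing, had 61.3 CPM per kb, and snf had 57.2. snf is the fly protein that serves in both the U1 and the U2 snRNP. snRNP-U1-70K, which binds the first stem-loop of U1 snRNA, had 30.5.

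In U2 and U2AF, the highest level was that of U2af50 (150 CPM per kb), the large U2AF subunit that reads the polypyrimidine tract. Its partner U2af38, which contacts the AG at the intron end, had 77.6. Sf3b3, a large propeller-shaped scaffold of the SF3b complex, had 127, while Sf3b1, which encloses the branch point helix, had 32.7 and Sf3b2 had 39.0. The small SF3b subunits Sf3b6, which contacts the branch site, and Sf3b5 had 94.6 and 58.8. The SF3a genes Sf3a1, Sf3a2 and noi had 40.1, 34.3 and 42.9, U2A had 89.9, and Prp5, the RNA helicase that acts as U2 binds, was lowest at 25.

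The value of Sf3b3 per kb is uncertain. Of its 4329 bp of exons 2508 bp (57.9%) are shared on the same strand with the noncoding gene lncRNA:CR45184, which was at 0 reads in every library. If reads in the shared part were set aside as ambiguous, the GFP level over the remaining 1821 bp would be 340 CPM per kb in place of 143. A further 16 members share exon bases with a gene on the opposite strand, up to 37.5% in SmD3, and reads of such partners cannot be told apart unless strand was used in counting, which the labels, though they call the libraries directional, do not state.

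In the tri-snRNP, Prp8, the large protein at the heart of the catalytic centre, had 79.8 CPM per kb and Prp6, which bridges U5 to U4/U6, had 18.1. Prp3 and Prp31, which hold U4/U6, had 66.5 and 38.6, and Prp38, which joins at activation, had 50.6. Of the NTC members, the ubiquitin ligase Prp19 had 93.1, the scaffold protein crn 46.1, Bx42 (the fly SKIP) 45.3 and Cdc5 27.0. The second-step ATPase Prp16 had 28.6 and Prp18, a factor that helps dock the 3′ splice site, had 9.88, the lowest of all members.

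The members varied little between libraries. For 30 of 32 genes the highest of the 9 libraries was under 1.3 times the lowest, the exceptions being SmB (1.42) and SmF (1.47). The biological coefficient of variation had a median of 4.61% over the members and 5.08% over protein-coding genes tested, and 26 of 32 members were under the median of all genes tested. It was lowest in Sf3b6 (3.44%) and highest in Prp16 (6.31%). All genes tested include those under 5 CPM, and the members were not compared with genes of like level.

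**Figure D2:**
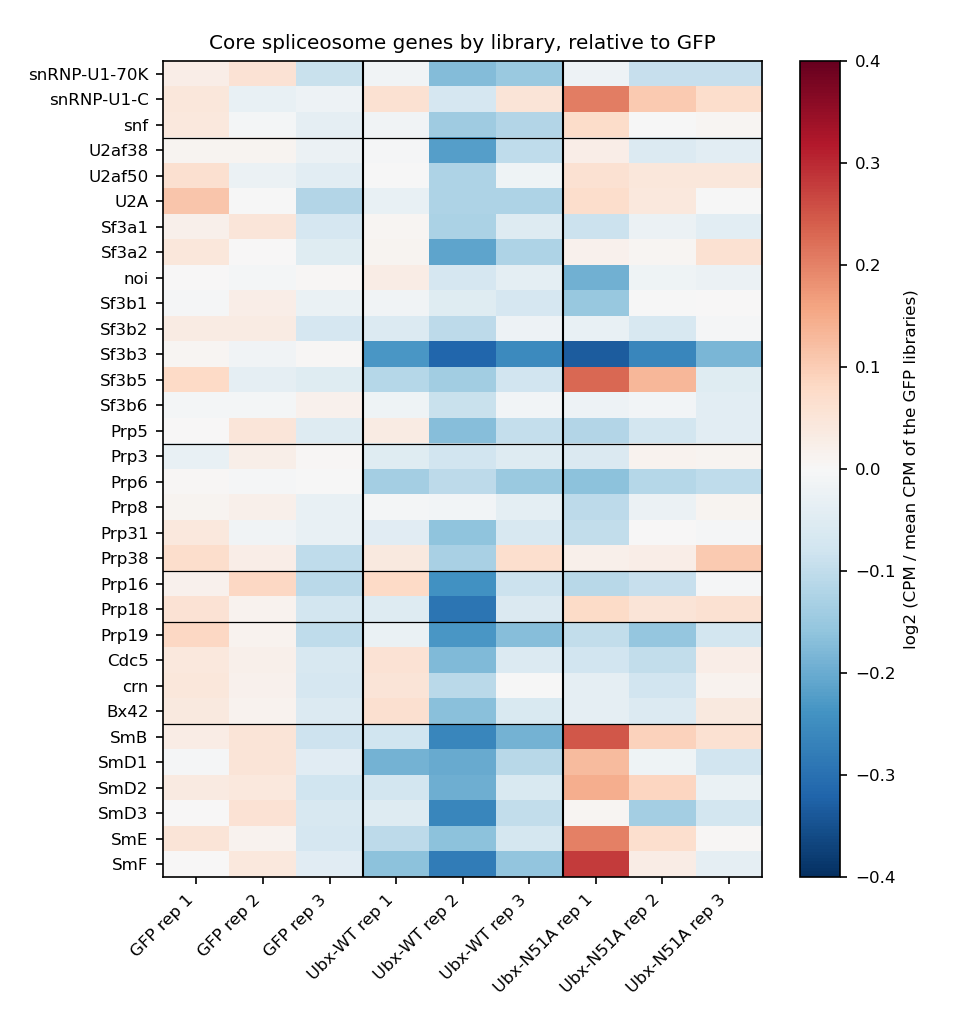
Log2 ratio of the CPM of each core spliceosome gene (rows, by class) in each library (columns) to its mean over the GFP libraries; blue is lower, red higher. Sf3b3 is lower in all 6 libraries with a Ubx protein, Ubx-WT replicate 2 is lower for all 32 genes, and Ubx-N51A replicate 1 is higher for all 6 Sm genes.

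With wild-type Ubx, the 32 members summed to 3976, 3681 and 3846 CPM, each below the 4178, 4156 and 3992 of the GFP libraries. Sf3b3 and Prp8 weigh most in these sums. The separation rests on Sf3b3, which was at 622 CPM in GFP replicate 3 and 527 in Ubx-WT replicate 1. Without Sf3b3 the sum of Ubx-WT replicate 1 lies above that of GFP replicate 3. Of the members 2 passed the test, both lower: Sf3b3 and Prp6. That is 6.25% of the members, in a comparison where edgeR called 16.6% of all genes tested, 7.83% as lower and 8.72% as higher. In bulk RNA, fewer cells with a transcript and less transcript per cell cannot be told apart.

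Sf3b3 (3L, 826720 to 833385) had 623, 614 and 622 CPM in GFP cells. Its Ubx-WT libraries gave 527, 497 and 520 CPM and its Ubx-N51A libraries 492, 517 and 546. Each of the 6 libraries with a Ubx protein was below each GFP library. If reads shared with lncRNA:CR45184 were set aside, the counts and fold changes of Sf3b3 describe only 1821 bp of its exons. The exon length offset among the alternatives, described below, used all 4329 bp. The log2 fold change was -0.27 with Ubx-WT (SE 0.0455; edgeR quasi-likelihood test, Benjamini-Hochberg adjusted p = 0.00143, n = 3). With Ubx-N51A it was -0.26 (SE 0.0456; edgeR adjusted p = 0.00475). Those comparisons share the GFP libraries. Between the Ubx proteins the log2 difference was 0.01, with a 95% interval of -0.09 to 0.11 (edgeR adjusted p = 0.941). Both calls stood in all 15 alternatives, with a highest adjusted p of 0.00837 for Ubx-WT and 0.027 for Ubx-N51A.

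Prp6 (3L, 18905372 to 18908974) had 65, 64.5 and 64.7 CPM in GFP cells. Its Ubx-WT libraries gave 58.9, 60.2 and 58.4 CPM and its Ubx-N51A libraries 57.8, 59.8 and 60.3. The GFP libraries lay above all others. The log2 fold change with Ubx-WT was -0.13 (SE 0.0371; edgeR adjusted p = 0.0298), and 9 of 15 alternatives kept the call. The edgeR adjusted p was 0.0594 with no expression filter, 0.0951, 0.0881 and 0.0673 without GFP replicates 1, 2 and 3, and 0.059 and 0.119 without Ubx-WT replicates 1 and 3. With Ubx-N51A the log2 fold change was -0.13 as well (edgeR adjusted p = 0.0582), which did not pass.

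Of the 32 fold changes with Ubx-WT 31 were negative, against negative values for 49.8% of all genes tested and 55.6% of genes of at least 5 CPM. The median over the members was -0.09, and over all genes tested 0.00. The groups did not overlap for 9 members, all lower (28.1%, where 17.8% of all genes tested lay apart as lower, 17.6% as higher and 35.4% in either direction). Among genes of at least 5 CPM 22% lay apart as lower, and among those under 1000 bp 28%. Without Ubx-WT replicate 2 the median was -0.05 with 27 negative, and without GFP replicate 1 it was -0.065. The members are not independent of each other, since libraries move many of them together.

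By class, the Sm genes had the lowest median with Ubx-WT, at -0.15, and none of the 6 passed the test. SmF, at -0.20, had 80.2, 82.6 and 77.6 CPM in GFP cells and 71.5, 66 and 71.9 in Ubx-WT cells (edgeR adjusted p = 0.0669). SmB and SmD1 were at -0.17 and -0.17, with edgeR adjusted p of 0.0618 and 0.0649. Of 15 alternatives SmB passed as lower in 6, SmF in 5 and SmD1 in 3, and DESeq2 called SmB and SmF. The class medians were -0.09 for U1, -0.07 for U2, -0.06 for the tri-snRNP, -0.10 for the second-step factors and -0.05 for the NTC. The largest values in these classes that did not pass were those of snRNP-U1-70K (-0.11, edgeR adjusted p = 0.162), Prp18 (-0.13, 0.259) and Prp19 (-0.14, 0.113). Without Ubx-WT replicate 2 the value of Prp18 was -0.055 (edgeR adjusted p = 0.684). Prp19 passed without GFP replicate 3 (edgeR adjusted p = 0.0481) or Ubx-WT replicate 1 (0.0216) and with no expression filter (0.0458). The value of snRNP-U1-70K passed without Ubx-WT replicate 1 (0.0415).

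The 95% intervals describe the precision of each fold change in this fit. They carry the spread between the libraries kept, not the trend with exon length described below. Between the Ubx proteins some values with an offset for exon length lay outside them. SmE was at 0.05 with the offset (interval 0.09 to 0.32) and SmF at 0.13 (0.14 to 0.44). For all 32 members the 95% interval of the log2 fold change with Ubx-WT lay within a 1.5-fold change in either direction, and for 30 within 1.25-fold. Among all genes tested these shares were 76.5% and 60.4%, and among genes of at least 5 CPM 97.2% and 83.8%. With Ubx-N51A against GFP the counts were 32 and 31, and between the Ubx proteins 32 and 28. The intervals for Prp8, the central protein of the particle, ran from -0.11 to 0.07 with Ubx-WT and from -0.13 to 0.05 with Ubx-N51A.

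**Figure D3:**
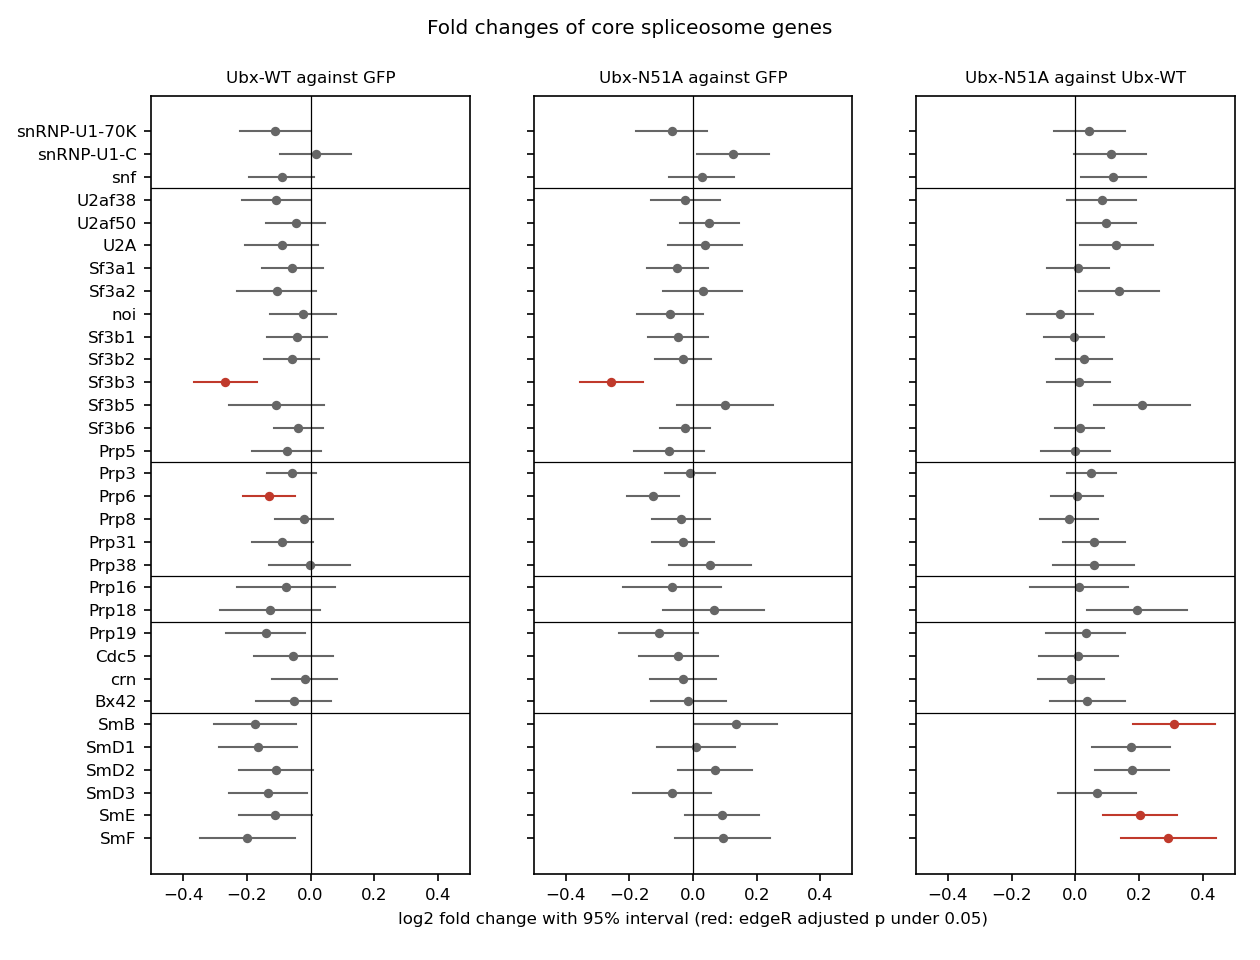
Log2 fold change of each core spliceosome gene in the 3 comparisons, with its 95% interval from the edgeR fit; red marks an adjusted p under 0.05, and lines separate the classes. Sf3b3 stands to the left in both comparisons with GFP, and SmB, SmE and SmF stand to the right between the Ubx proteins.

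With Ubx-N51A, Sf3b3 was the single member called against GFP (3.12% of the members, where 8.09% of all genes tested were called, 4.71% lower and 3.38% higher). The median log2 fold change over the members was -0.02, against 0.01 over all genes tested, and 13 members were positive and 19 negative. With an offset for exon length, described with the length trend, the split was 5 positive and 27 negative, at a median of -0.03. Without Ubx-N51A replicate 1 it was 15 positive and 17 negative, at a median of -0.001. The groups did not overlap for 2 members that were higher and 4 that were lower, together 18.8%. Of all genes tested 29.4% lay apart, 14.4% as higher and 15% as lower. snRNP-U1-C was the largest value in U1, at 0.125, with 42, 39.9 and 40.1 CPM in GFP cells and 46.9, 43.8 and 42.7 in Ubx-N51A cells. Its groups did not overlap and it did not pass (edgeR adjusted p = 0.168), and it was at 0.04 with the length offset. SmB was the largest in the Sm class, at 0.135 (edgeR adjusted p = 0.188), and was at 0.08 without Ubx-N51A replicate 1 and 0.06 with the length offset. The largest values in the second-step and NTC classes, Prp16 (-0.07, edgeR adjusted p = 0.618) and Prp19 (-0.11, 0.277), did not pass. Without Ubx-N51A replicate 1 Prp16 was at -0.04.

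Between the Ubx proteins, 3 Sm genes passed the test and were higher with Ubx-N51A than with Ubx-WT: SmB, SmE and SmF. They are 9.38% of the members, where 5.14% of all genes tested were called, 1.23% as higher and 3.91% as lower. SmB, a subunit of the Sm ring with a long tail (2L, 10425483 to 10426627), had 109, 96.2 and 101 CPM in Ubx-WT cells, 137, 123 and 120 in Ubx-N51A cells, and 118, 119 and 109 in GFP cells. The Ubx-N51A libraries lay above those of both other groups. The log2 difference was 0.31 (SE 0.0591; edgeR adjusted p = 0.00712, n = 3).

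SmF (2R, 12183844 to 12184310) had 71.5, 66 and 71.9 CPM in Ubx-WT cells against 97.2, 81.7 and 78.2 in Ubx-N51A cells, a log2 difference of 0.29 (SE 0.0685; edgeR adjusted p = 0.0263). SmE (2L, 7884930 to 7885450) had 69.8, 66.9 and 71.5 CPM in Ubx-WT cells against 86.3, 78.7 and 75.2 in Ubx-N51A cells, a log2 difference of 0.20 (SE 0.053; edgeR adjusted p = 0.045). For both genes the highest library was Ubx-N51A replicate 1, and the Ubx-N51A range overlapped that of GFP. The other Sm genes were at 0.175 (SmD1, edgeR adjusted p = 0.114), 0.18 (SmD2, 0.0866) and 0.07 (SmD3, 0.606). Summed over the 6 Sm genes, the Ubx-WT libraries held 543, 494 and 536 CPM, all below the 588, 598 and 553 of the GFP libraries and the 648, 588 and 571 of the Ubx-N51A libraries.

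**Figure D4:**
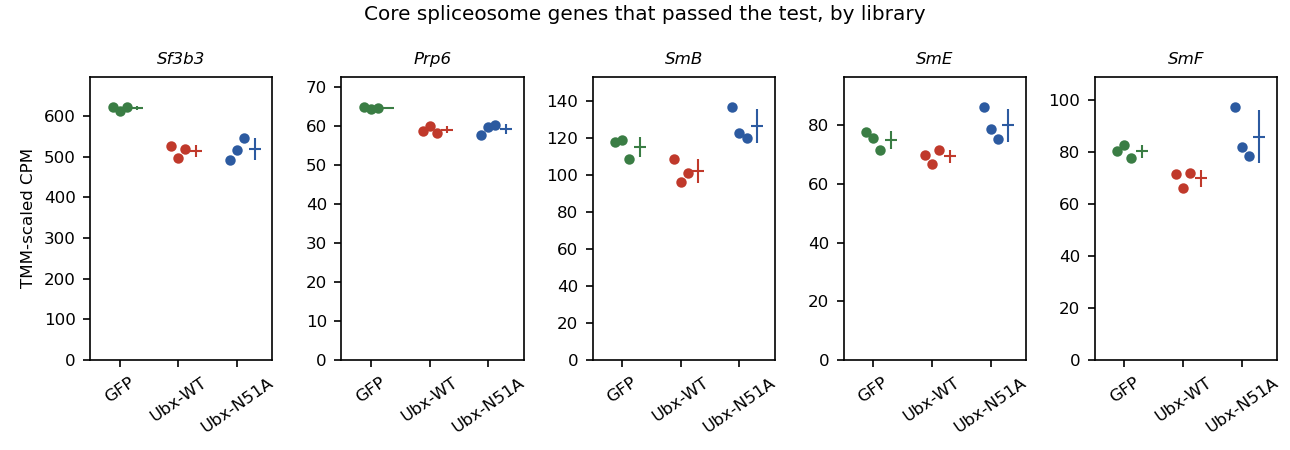
TMM-scaled CPM of the 5 core spliceosome genes that passed the test in any comparison, with a point per library and, beside each group, its mean ± SD (n = 3). Sf3b3 and Prp6 are highest in all GFP libraries, and SmB, SmE and SmF are lower in all Ubx-WT libraries than in any Ubx-N51A library.

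The calls for SmE and SmF depended on single libraries. Without Ubx-N51A replicate 1 the log2 difference of SmF was 0.20 (edgeR adjusted p = 0.0554) and that of SmE 0.15 (0.157), and without Ubx-WT replicate 2 they were 0.25 (0.0995) and 0.18 (0.155). SmF was also lost without Ubx-WT replicate 3 (0.0617). SmE held its call in 2 of the 9 fits that left out a library, those lacking replicate 3 of GFP or of Ubx-N51A, with a highest edgeR adjusted p of 0.157 over the 9. SmB kept its call without each of the 9 libraries, at log2 differences of 0.25 to 0.36. Of the other members, 8 further ones lay apart between the Ubx proteins, all higher with Ubx-N51A. In all, 11 members did so (34.4%), against 10.9% of all genes tested in that direction (11.9% as lower and 22.9% in either). Among genes of at least 5 CPM 13.9% lay apart as higher, and among those under 1000 bp 38.1%. Of the 11 members under 1000 bp 8 lay apart as higher (72.7%). The difference was positive for 28 of 32 members. Without Ubx-WT replicate 2 that count was 19 of 32, and the median was 0.02 in place of 0.05.

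The differences between the Ubx proteins went with exon length. Across the 32 members, log10 exon length and the log2 difference had a Pearson r of -0.79 and a Spearman rho of -0.84. Across the 6400 genes of at least 5 CPM with a known length they were -0.30 and -0.60. These points share the same libraries and scaling, so the values describe these libraries. All 11 members under 1000 bp were positive, with a median of 0.175, and the 10 members of 2500 bp or more had a median of 0.01. Among all 800 genes under 1000 bp and of at least 5 CPM, 93.1% were positive, with a median of 0.12, and 7.25% were called higher. With Ubx-N51A against GFP the members gave an r of -0.73, and with Ubx-WT against GFP 0.21. The slope on length was most negative in Ubx-N51A replicate 1, at -0.18 log2 units per 10-fold length, and most positive in Ubx-WT replicate 2, at 0.13.

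**Figure D5:**
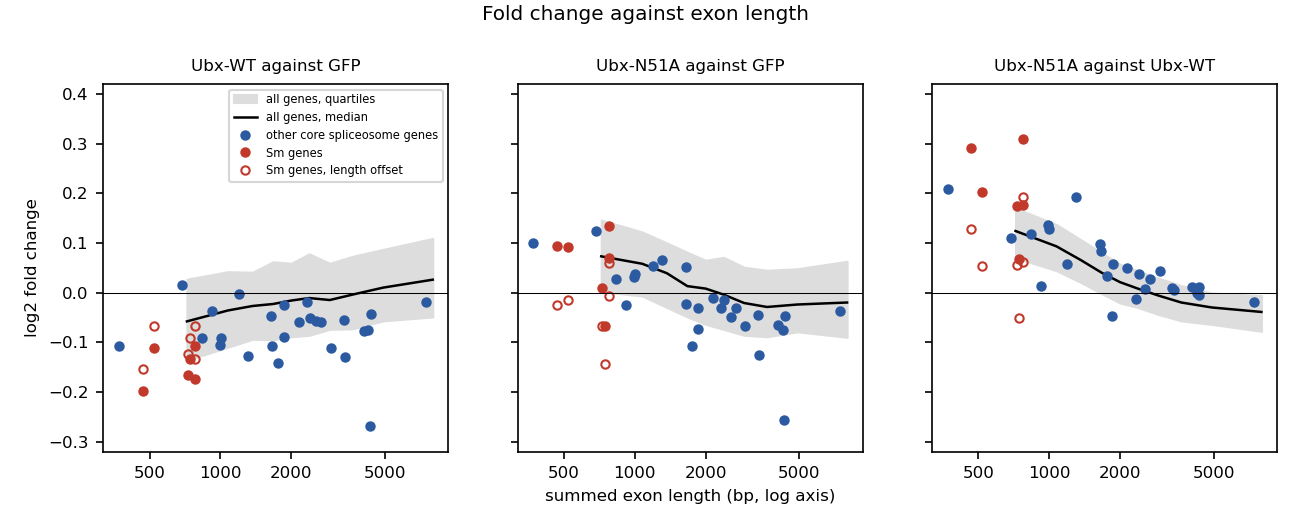
Log2 fold change against summed exon length (log axis) in the 3 comparisons. Filled points are Sm genes (red) and the other members (blue), the line and band are the median and quartiles of genes of at least 5 CPM in 10 equal bins of length, and open red points are Sm genes after the exon length offset. Between the Ubx proteins the line falls from 0.12 to -0.04, and the open points lie between -0.05 and 0.19.

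With an offset for exon length fitted in each library, 1 of the 3 calls between the Ubx proteins remained. SmB was at 0.19 (edgeR adjusted p = 0.0485), SmF at 0.13 (0.283) and SmE at 0.05 (0.719). The Sm median was 0.06 in place of 0.19, and the correlation of the difference with log10 length over the 32 members was then -0.10. SmD3 turned from 0.07 to -0.05, which did not pass in either fit (edgeR adjusted p = 0.79 with the offset). Against GFP the calls of Sf3b3 and Prp6 were the same with the offset, at -0.29 and -0.14 with Ubx-WT (edgeR adjusted p = 0.000623 and 0.0108) and at -0.24 for Sf3b3 with Ubx-N51A (0.00459). The Sm median with Ubx-WT was -0.11 with the offset, and with Ubx-N51A it turned from 0.08 to -0.02. The source of the length trend was not tested.

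Outside the Sm class, the largest difference between the Ubx proteins was that of Sf3b5 (0.21, edgeR adjusted p = 0.123), the shortest member, followed by Prp18 (0.19, 0.178). Without Ubx-WT replicate 2 Prp18 was at 0.12. Sf3b5 was at 0.03 with the length offset, and it passed at 0.29 (0.0261) without Ubx-N51A replicate 3. Among U1, tri-snRNP and NTC genes the largest were snf (0.12, edgeR adjusted p = 0.208), Prp31 (0.06, 0.567) and Bx42 (0.04, 0.802). Without Ubx-WT replicate 2 Prp31 was at 0.02 and Bx42 at -0.02, without Ubx-N51A replicate 1 Prp31 was at 0.09, and with the length offset snf was at 0.01 and Prp31 at 0.04.

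Other genes of the splicing machinery were taken from lists drawn up with the members, and 1 gene passed in each list. The alternatives were not examined for the genes of these lists. Of 21 further spliceosome genes tested (LSm proteins and other step factors), 0 passed with Ubx-WT against GFP, where 16.6% of all genes tested did. Their median log2 fold change was -0.05, and 2 (9.52%) had an unadjusted edgeR p under 0.05, against 30.7% of all genes tested. With Ubx-N51A against GFP 0 passed by edgeR, where 8.09% of all genes tested did. Again 2 (9.52%) had an unadjusted edgeR p under 0.05, against 23.4% of all genes tested. Between the Ubx proteins LSm7, of the ring on U6 snRNA, was higher with Ubx-N51A (44 ± 2.04 against 36.8 ± 2.5 CPM, log2 difference 0.25, edgeR adjusted p = 0.0213). That is 4.76% of the list, close to the 5.14% of all genes tested.

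Of 9 tested genes for assembly of the Sm ring, Glos, a Gemin protein of the SMN complex, rose with Ubx-WT by 0.18 on the log2 scale (26.2 ± 1.28 CPM in GFP cells, 29.7 ± 1.5 in Ubx-WT cells; edgeR adjusted p = 0.0427). Of the 6 tested exon junction complex genes, mago, a core subunit of the complex laid down upstream of spliced junctions, fell with Ubx-WT by 0.16 on the log2 scale (91.9 ± 2.82 CPM in GFP cells, 82.1 ± 2.67 in Ubx-WT cells; edgeR adjusted p = 0.0231). These calls are 11.1% and 16.7% of their lists, against 16.6% of all genes tested in that comparison. Neither list had a call with Ubx-N51A against GFP or between the Ubx proteins, where 8.09% and 5.14% of all genes tested were called. Against GFP 0 and 0 had an unadjusted edgeR p under 0.05, where 23.4% of all genes tested did. Between the Ubx proteins 1 and 2 did (11.1% and 33.3%), against 17% of all genes tested.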

How the data were processed

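Each library has 1 deposited table of unnormalized counts for FlyBase genes, made by the authors with FastQC, Trimmomatic 0.36, STAR, HTSeq, DESeq and DESeq2 on the builds dm6 and BDGP6, per the submitters' processing notes. Tool settings, among them the strand option, and the gene set release are not stated in the labels. Per the labels' protocols, 3 of 4 replicates per group were kept after a principal component analysis, which can narrow the spread behind the p-values. The labels call the replicates independent without saying how, so p-values measure the spread between these libraries.

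Symbols matched 17253 of 17559 genes. Gene positions and merged exon lengths were read from Ensembl release 115 (BDGP6.54, which shares the coordinates of dm6). HTSeq summary rows stayed out of library sizes. They held 1.50% to 2.27% (no gene), 3.11% to 3.32% (ambiguous) and 3.26% to 5.05% (several alignments) of the deposited counts.

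The counts were fitted with edgeR 4.0.16 in R 4.3.3 (filterByExpr, TMM factors 0.971 to 1.03, 1 quasi-likelihood fit over all 9 libraries, group as the only term). The common biological coefficient of variation was 5.41%. P-values were Benjamini-Hochberg adjusted over the 9207 genes, and a gene was called under 0.05. Standard errors are the fold change over the root of F, and 95% intervals use the fit's degrees of freedom. The code was tested on simulated data. Alternatives were DESeq2 size factors, a DESeq2 1.42.0 Wald test, no filter, 2 groups per fit, a replicate block, a loess offset on exon length (fitted on genes of at least 5 CPM) and each library left out.

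The members and lists were chosen with earlier results of these data known. By a rule, the text gives every member called and, in each class and comparison, the member with the largest absolute fold change and those with the highest and lowest level per kb. Levels of the remaining members and the further values of SmD1, SmD2, SmD3 and Prp8 were added after values were seen. Of the list of other spliceosome genes 7 entries, among them SmG, had no match.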

Additional observations from a re-analysis of the deposited data

Results flagged for a closer look

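The log2 difference between Ubx-N51A and Ubx-WT passed the test for 3 members. It was 0.31 for SmB, 0.20 for SmE and 0.29 for SmF, higher with Ubx-N51A in all 3 of its libraries. With the exon length offset SmB was at 0.19 (edgeR adjusted p = 0.0485), SmF at 0.13 (0.283) and SmE at 0.05 (0.719). With only the groups compared in the fit, SmF (0.0571) and SmE (0.0745) did not pass. Of 9 fits that left out a library SmB was called in 9, SmF in 6 and SmE in 2. The mitochondrial read share (2.77% to 4.91% with Ubx-WT, 4.11% to 5.87% with Ubx-N51A) and the slope on exon length (0.05 to 0.13 with Ubx-WT, -0.18 to -0.01 with Ubx-N51A) also differed between these libraries, and the part of the mitochondrial share was not tested.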

How the results depend on the processing

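Every alternative kept the call of Sf3b3 lower in both comparisons with GFP and of SmB higher with Ubx-N51A than with Ubx-WT. The count of members called with Ubx-WT against GFP, 2 in the report, was 5 with no expression filter, 4 with only the groups compared in the fit and 4 with DESeq2, and 1 to 5 when a library was left out. With Ubx-N51A against GFP it was 2 with DESeq2, in place of 1, and 1 when any library was left out. Between the Ubx proteins it was 1 with the exon length offset and 1 with only the groups compared, in place of 3, and 1 to 5 when a library was left out. When a library was left out, all genes called numbered 990 to 1741 with Ubx-WT against GFP (1524 in the report), 362 to 823 with Ubx-N51A against GFP (745) and 302 to 474 between the Ubx proteins (473). The members' medians moved by less than the 0.05 spread between replicates (log2) in the alternatives run. That spread is about as large as the median between the Ubx proteins (0.053) and larger than that with Ubx-N51A against GFP (-0.024). It therefore cannot show that these medians held. Without Ubx-WT replicate 2 the median was 0.016 between the Ubx proteins, and -0.054 in place of -0.090 with Ubx-WT against GFP. Bx42, at 0.037 between the Ubx proteins, ranged from -0.017 (without Ubx-WT replicate 2, edgeR adjusted p = 0.923) to 0.097 when a library was left out. The libraries of equal replicate number did not deviate together (correlations of -0.11 to 0.18, up to 0.24 between unequal numbers), so the number was not taken as a pairing. The numbers in the file names differ for some libraries. Pairs that share a file number are among the pairs correlated, but no block on file numbers was run, so pairing by them is not settled. With the title number as a replicate block the members called were 3, 1 and 3.

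Most calls lie at log2 changes under 0.3, where depth is ample and the spread between 3 libraries sets the limit. Each member had 414 or more reads in every library.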
